A study of Mus musculus with 6 samples.

Results

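Notch receptors, ligands and Hes/Hey target genes were examined in 6 mouse brain tumor libraries. The 10 genes were taken by name: the receptors Notch1, Notch2 and Notch3, the ligands Dll1, Dll3 and Jag1, and the targets Hes1, Hes5, Hey1 and Hey2. All 10 were found among the 24537 gene rows of the count table, and all 10 were among the 13101 genes that passed the filter on low counts. The tumors were made in CD-1 IGS mice by in utero electroporation, in which DNA is driven into cells of the embryonic brain by an electric pulse. Every tumor carried PdgfraD482V, a mutant growth factor receptor, and DNp53, a dominant-negative form of p53, so these alleles were shared by both groups. In 3 libraries the title adds FOXR2, a forkhead transcription factor, and in 3 it reads Control. The labels give neither the promoter of the constructs nor the age of the animals. They do not say that the 3 samples of a title are separate animals, and p-values cover only the spread among these samples.

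The groups are those of the sample titles. The deposit also includes a sheet of sample types, which reverses the titles in 6 of 6 libraries. The row of the mouse gene Foxr2 could not decide between them. It lay between 0.0629 and 1.43 CPM (counts after scaling for depth, with TMM factors that correct for library composition) in the libraries titled FOXR2. In those titled Control it lay between 0.240 and 0.596 CPM. Whether reads of the electroporated FOXR2 fall in that row was not tested. Libraries are therefore called "titled FOXR2" and "titled Control", and if the sheet is right each direction given here is the opposite. Where 3 values follow each other, they are those of replicates 1, 2 and 3 in that order. Depth ranged from 13429489 to 17927025 counts per library. The labelled brain tumor tissue carried genes of the oligodendrocyte precursor lineage, with Olig2 at 446 to 812 CPM. FOXR2 replicate 2 stood apart by 8 microglia and macrophage markers that summed to 762 CPM there and to 1.25 to 3.48 CPM in the other libraries. That library also held 25.0 CPM of Mog and 7.30 CPM of Mobp (mature oligodendrocytes) and 9.38 CPM of Ttr (choroid plexus). Elsewhere these genes, named after their values were seen, reached at most 0.232, 0.326 and 0.146 CPM. The oligodendrocyte markers Mag and Cnp were highest in Control replicate 3, and the ependymal marker Foxj1 in FOXR2 replicate 3. In such bulk samples, fewer cells of a type and less RNA per cell cannot be told apart.

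Notch receptors sit in the cell surface and are switched on by Delta and Jagged ligands on a neighbouring cell. Ligand binding exposes the receptor to proteases of the ADAM family and then to gamma-secretase, which frees the intracellular domain. This domain enters the nucleus, joins the DNA-binding protein RBPJ and Mastermind coactivators, and switches on Hes and Hey genes, whose products are repressors of the basic helix-loop-helix class. In the developing brain Hes1 and Hes5 hold radial glia in a progenitor state by repressing proneural genes, and proneural factors in turn switch on Dll1 and Dll3 in the cells that leave that state.

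The link from receptor to target runs through RBPJ sites in the target promoters, so 2 target promoters are shown with the matches they hold. Promoter sequences were those of RefSeq for GRCm38.p6, from 250 bases before to 50 bases after each gene's start, and 8 of the 10 members matched an entry by symbol, all but Hes1 and Hey1. The motif searched was GTGGGAA, a form of the RBPJ site, on both strands, where the reverse strand reads TTCCCAC. Hes5 and Hey2 each held 2 matches, on opposite strands, and the other members with an entry held 0. Of all 32851 promoter windows of this length, 6.38% held at least 1 match and 0.256% held 2 or more. In Hes5 (chr4:154960673-154960922, plus strand) the matches began 226 and 83 bases before the start, and in Hey2 (chr10:30842781-30843033, minus strand) they began 207 and 4 bases before it. Capitals mark the matches and the sequences run 5′ to 3′ towards the gene.
Hes5: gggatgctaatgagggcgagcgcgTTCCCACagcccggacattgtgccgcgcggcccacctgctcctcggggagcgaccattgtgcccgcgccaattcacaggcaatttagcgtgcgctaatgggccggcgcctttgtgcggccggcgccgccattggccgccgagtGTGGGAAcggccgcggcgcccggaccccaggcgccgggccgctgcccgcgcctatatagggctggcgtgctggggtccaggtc
Hey2: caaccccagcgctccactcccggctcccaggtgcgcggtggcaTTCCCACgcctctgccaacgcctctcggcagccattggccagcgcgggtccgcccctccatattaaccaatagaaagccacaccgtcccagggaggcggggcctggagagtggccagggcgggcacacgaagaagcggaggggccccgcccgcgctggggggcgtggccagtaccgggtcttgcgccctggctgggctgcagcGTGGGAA
A match describes the letters only, and binding was not measured here.

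Across the 10 members, 0 passed the edgeR quasi-likelihood test at a Benjamini-Hochberg adjusted p under 0.05 over all tested genes, where 2.29% of all 13101 genes passed, 0.908% with a higher level in the libraries titled FOXR2 and 1.38% with a lower one. DESeq2 called 2 members higher in the libraries titled FOXR2, Notch1 and Hey1, where it called 7.30% of the 12542 genes with an adjusted p higher and 14.6% in either direction. Limma-voom called 0, where it called 1.85% of all genes. At an unadjusted p under 0.05 edgeR gave 2 of 10, again Notch1 and Hey1, where 24.9% of all genes fell under that limit, 11.9% on the higher side. Of the 10 members, 8 had a fitted log2 fold change above 0 (titled FOXR2 minus titled Control) and 2 had one below 0, with a median of 0.61, beside a median of 0.01 and 50.7% above 0 over all tested genes. The libraries of the groups did not overlap in 3 of 10 members, Notch1, Hey1 and Hey2, all with the libraries titled FOXR2 on the higher side. This was the case in either direction for 30.3% of all tested genes, and for 13.0% with the libraries titled FOXR2 higher.

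**Figure D1:**
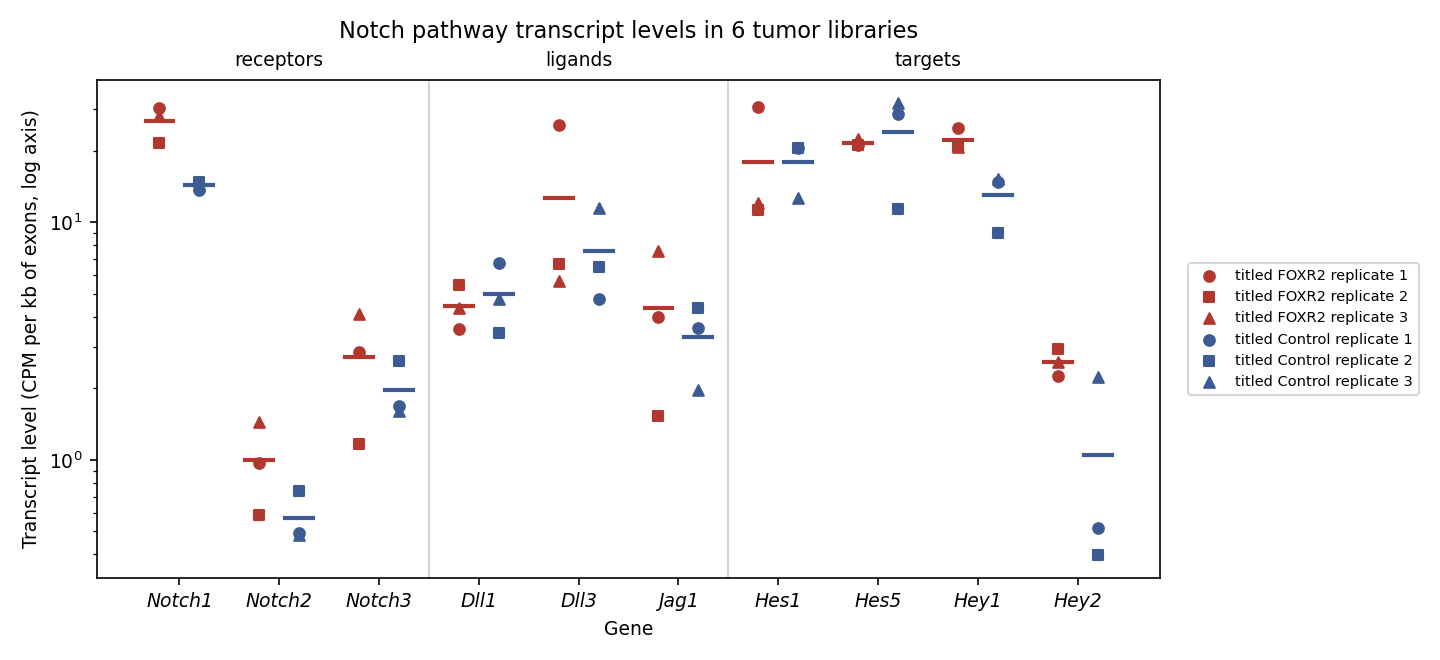
Transcript level of each member in CPM per kilobase of exons on a log axis, by gene. Each point is 1 library (red, titled FOXR2; blue, titled Control; the symbol gives the replicate number) and each bar is the group mean. Notch1 and Hey1 separate the groups, and Hey2 does so by a narrow gap. Hes1 and Hes5 overlap, and Notch2 lies lowest among the receptors in every library.

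The receptors differed from one another in level far more than between the groups. Notch1, the main receptor of neural progenitors, averaged 26.6 ± 4.57 CPM per kilobase of exons under the FOXR2 title and 14.3 ± 0.543 under Control (mean ± SD of 3 libraries). Notch3, known from vascular mural cells and also found in neural progenitors, stood at 2.71 ± 1.49 and 1.97 ± 0.558 CPM per kilobase, and Notch2 at 1.00 ± 0.433 and 0.570 ± 0.145. Per length, Notch1 made up 81.5% to 92.5% of the summed receptor level in the 6 libraries, Notch3 4.99% to 14.4% and Notch2 2.52% to 4.32%. The order Notch1, Notch3, Notch2 was thus the same in every library, whichever title it carried.

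Notch1 gave the smallest p-value of the 10. Its level was 288, 204.5 and 266 CPM under the FOXR2 title and 130, 140 and 137 CPM under Control. The lowest library titled FOXR2 lay above the highest titled Control, and the 3 libraries titled Control lay close together. The log2 fold change was 0.90 ± 0.19 (standard error), or 1.87-fold, with a 95% confidence interval of 0.46 to 1.34, and its edgeR adjusted p of 0.0552 missed the threshold, while DESeq2 gave an adjusted p of 0.000621. Among the members it came first by p-value, at rank 401 of 13101 over all genes, while 300 genes were called. The libraries also differed in animal sex, read from Xist and Y-linked genes. In the 3 male libraries FOXR2 replicates 1 and 3 held 288 and 266 CPM of Notch1 and Control replicate 1 held 130 CPM. The 3 female libraries held 204.5 CPM in FOXR2 replicate 2 against 140 and 137 CPM in Control replicates 2 and 3. With sex as a covariate the log2 fold change was 0.83 (edgeR adjusted p = 0.154).

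Notch2 and Notch3 varied within the groups and did not pass. Notch2, a broadly expressed receptor, stood at 10.2, 6.17 and 15.2 CPM under the FOXR2 title and 5.15, 7.74 and 5.05 CPM under Control. Its log2 fold change of 0.82 ± 0.41 had a 95% confidence interval of -0.13 to 1.77 (edgeR adjusted p = 0.259). For Notch3 the libraries titled FOXR2 held 22.8, 9.31 and 33.1 CPM and those titled Control 13.5, 20.9 and 12.8 CPM. FOXR2 replicate 2 was the lowest of all 6 for Notch3 and FOXR2 replicate 3 the highest, so the group spanned the other. The log2 fold change of Notch3 was 0.46 ± 0.46 (edgeR adjusted p = 0.568), which was 0.82 without FOXR2 replicate 2 and 0.03 without FOXR2 replicate 3. That of Notch2 was 0.45 without FOXR2 replicate 3.

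Most markers of vessel cells, which also express Notch genes, were low, with Flt1 as an exception in FOXR2 replicates 1 and 2. Of 10 endothelial markers only Kdr and Flt1 passed the filter on low counts, and Pecam1 and Cdh5, which define endothelium, reached at most 2.01 and 1.51 CPM, both in FOXR2 replicate 2. The endothelial markers summed to 15.3, 12.7 and 1.60 CPM under the FOXR2 title, of which Flt1 gave 12.2, 5.29 and 0.219 CPM, and to 3.37 to 4.26 CPM in the libraries titled Control. The 8 mural cell markers summed to 1.57, 10.1 and 3.21 CPM in the libraries titled FOXR2 and to 1.25 to 2.46 CPM in those titled Control. Most of the mural sum of FOXR2 replicate 2 came from Acta2 (4.22 CPM), Pdgfrb (3.33 CPM, at most 0.120 CPM elsewhere) and Tagln (1.89 CPM). The mural markers Rgs5, Kcnj8, Abcc9 and Higd1b were highest in other libraries, at 0.656 CPM or less. The receptor Notch4 and the ligand Dll4, both typical of endothelium, stayed at or below 1.60 and 0.944 CPM in every library.

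**Figure D2:**
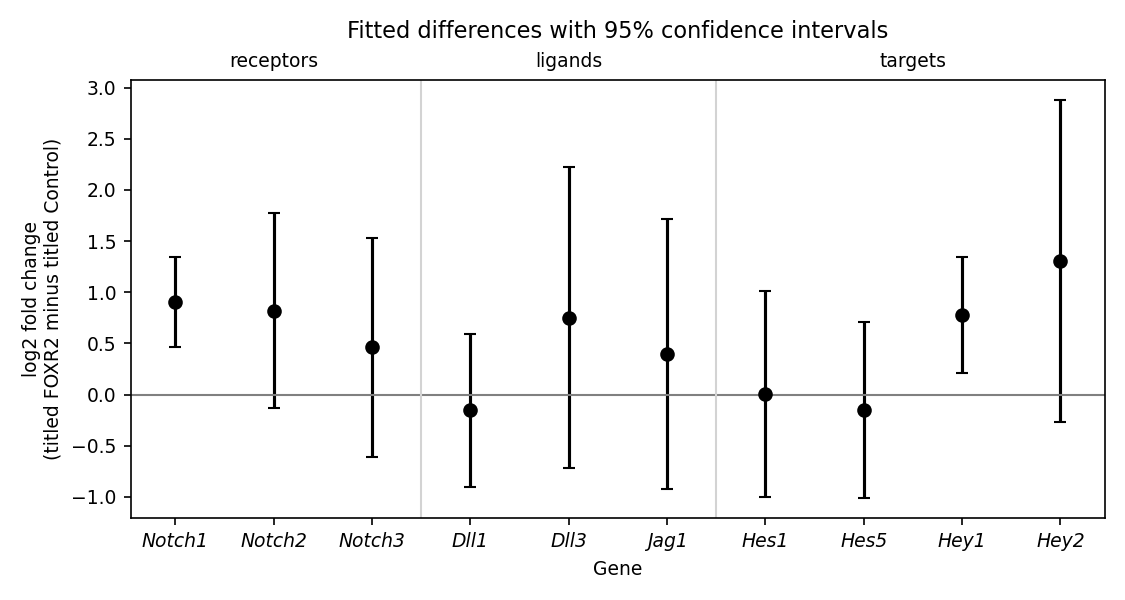
Fitted log2 fold change of each member (titled FOXR2 minus titled Control; points) with its 95% confidence interval (bars), by gene and role. The intervals of Notch1 and Hey1 lie above 0 before adjustment for the number of genes tested, and those of the other 8 members include 0.

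None of the ligands differed between the groups beyond the spread of their libraries. Dll3, a Delta family member known to act inside the cell that makes it, was the most abundant ligand on average at 12.7 ± 11.3 CPM per kilobase under the FOXR2 title and 7.57 ± 3.48 under Control (mean ± SD of 3 libraries). Dll1, which activates Notch on the neighbouring cell, stood at 4.46 ± 0.960 and 4.97 ± 1.67 CPM per kilobase. Jag1, the Jagged ligand, stood at 4.36 ± 3.03 and 3.31 ± 1.22. Dll1 and Jag1 did not differ from each other in group mean beyond this spread, and the order of the 3 ligands changed from library to library.

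Single libraries set the ligand values. Dll3 was at 67.5, 17.5 and 14.8 CPM under the FOXR2 title, beside 12.5, 17.0 and 30.0 CPM under Control. The next highest library after FOXR2 replicate 1 was Control replicate 3, and the other 4 lay together between 12.5 and 17.5 CPM. The log2 fold change of 0.75 ± 0.63 (edgeR adjusted p = 0.499) became -0.28 without FOXR2 replicate 1. Neurog1 and Neurog2, proneural factors that switch on Delta genes, had 0 counts in all 6 libraries, below the floor of 3 counts, or 0.174 to 0.219 CPM.

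Dll1 was at 12.7, 19.6 and 15.7 CPM under the FOXR2 title and 24.1, 12.2 and 17.1 CPM under Control. The groups overlapped throughout, and the log2 fold change of -0.15 ± 0.32 had a 95% confidence interval of -0.90 to 0.59 (edgeR adjusted p = 0.800). Jag1 was at 22.5, 8.56 and 42.4 CPM under the FOXR2 title and 20.1, 24.5 and 11.1 CPM under Control. FOXR2 replicates 3 and 2 were the highest and the lowest of all libraries for Jag1, as they were for Notch3. The log2 fold change of Jag1 was 0.40 ± 0.56 (edgeR adjusted p = 0.700), and it was -0.26 without FOXR2 replicate 3.

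**Figure D3:**
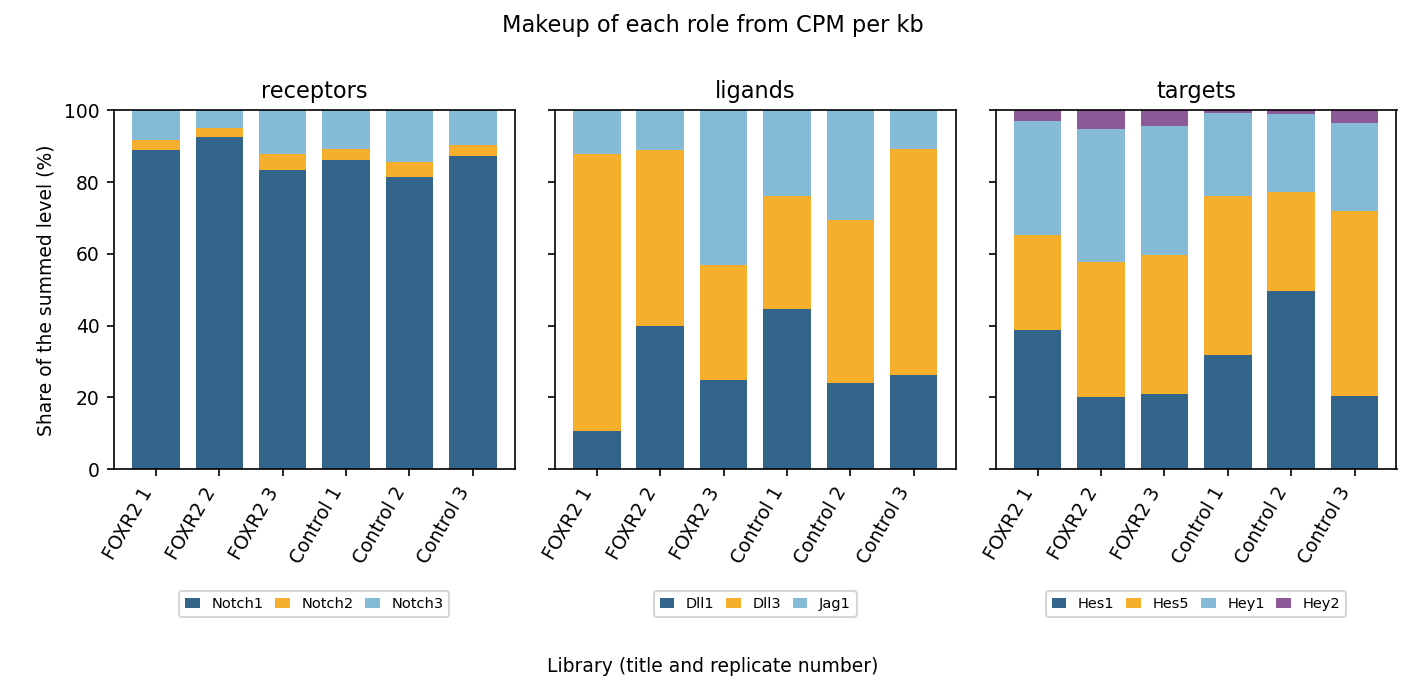
Share of each member in the summed level of its role (percent, from CPM per kilobase), as stacked bars for the 6 libraries named by title and replicate number. Notch1 makes up at least 81.5% of the receptors in each library, the ligand makeup changes from library to library, and Hey1 takes a larger share of the targets in the 3 libraries titled FOXR2 than in those titled Control.

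The target genes gave unlike fold changes, though the differences among them were not tested. Hey1 and Hey2 had log2 fold changes of 0.77 and 1.30, while those of Hes1 and Hes5 were 0.01 and -0.15. Hey1 stood at 60.7, 50.6 and 50.1 CPM under the FOXR2 title and 35.7, 21.9 and 37.0 CPM under Control. All libraries titled FOXR2 lay above all titled Control, by 1.71-fold in the fit, with a standard error of 0.24 around the log2 fold change and a 95% confidence interval of 0.21 to 1.34. Its edgeR adjusted p was 0.114, and the DESeq2 adjusted p was 0.0411.

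Hey2 was the least abundant of the targets. It was at 5.74, 7.49 and 6.56 CPM under the FOXR2 title, from 88 to 119 counts. The libraries titled Control held 1.32, 1.01 and 5.69 CPM, from 22, 17 and 98 counts. The groups were separated only by the gap between 5.69 CPM in Control replicate 3 and 5.74 in FOXR2 replicate 1, and Control replicates 1 and 2 lay well below the rest. The fitted difference was 1.30 ± 0.67 on the log2 scale (edgeR adjusted p = 0.275). Without Control replicate 3 it was 2.49 (edgeR adjusted p = 0.0813), and without Control replicate 2 it was 0.93.

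Hes1 and Hes5, the progenitor targets, overlapped between the groups. Hes1 was at 44.8, 16.6 and 17.7 CPM under the FOXR2 title and 30.1, 30.3 and 18.6 CPM under Control. Like Dll3 it was highest in FOXR2 replicate 1, and its group means were 26.4 ± 16.0 and 26.3 ± 6.66 CPM (mean ± SD of 3 libraries). The 95% confidence interval of its log2 fold change ran from -1.00 to 1.01, so a difference of up to 2-fold either way was not excluded (edgeR adjusted p = 0.996). Without FOXR2 replicate 1 the log2 fold change was -0.61. Hes5 was at 26.9, 27.0 and 28.5 CPM under the FOXR2 title and 36.4, 14.5 and 40.7 CPM under Control. The libraries titled FOXR2 lay close together, inside the range of those titled Control, and the log2 fold change of -0.15 ± 0.37 had an interval of -1.01 to 0.71 (edgeR adjusted p = 0.830). Without Control replicate 2 it was -0.48.

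Per kilobase of exons, Hes5 averaged 21.6 ± 0.717 in the libraries titled FOXR2 and 24.0 ± 11.0 CPM in those titled Control, Hes1 18.0 ± 10.9 and 17.9 ± 4.54, Hey1 22.2 ± 2.45 and 13.0 ± 3.47, and Hey2 2.59 ± 0.343 and 1.05 ± 1.03 (mean ± SD of 3 libraries). Hes1, Hes5 and Hey1 were thus of like level and did not differ from one another in group mean beyond their spread in the libraries titled FOXR2, with Hey2 well below. Hey1 formed 31.7% to 37.1% of the summed target level in the libraries titled FOXR2 and 21.8% to 24.6% in those titled Control. As a share of its role, Hes1 ranged from 20.1% to 49.8% and Hes5 from 26.7% to 51.4% over all 6 libraries. The Hes5 and Hey2 promoters printed above hold the same number of RBPJ motif matches, and their log2 fold changes were -0.15 and 1.30. The confidence intervals of these fold changes overlapped (-1.01 to 0.71 and -0.27 to 2.88), and neither gene was called by edgeR. Hes1 and Hey1 had no promoter entry, and a link between motif matches and fold change was not tested.

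Summed by role, the receptors separated the groups and the ligands and targets did not. The receptor sum was 34.2, 23.3 and 33.6 CPM per kilobase under the FOXR2 title and 15.9, 18.1 and 16.5 under Control, most of it Notch1. The ligand sum was 33.3, 13.7 and 17.6 CPM per kilobase against 15.1, 14.3 and 18.2, with FOXR2 replicate 1 high through Dll3. The target sum was 78.9, 56.4 and 57.7 CPM per kilobase against 64.3, 41.4 and 62.2. The median log2 fold change was 0.82 for the 3 receptors, 0.40 for the 3 ligands and 0.39 for the 4 targets. With 1 library left out in turn, the receptor median ranged from 0.46 to 1.03 and the target median from 0.28 to 0.53. Without FOXR2 replicate 3 the order turned, with the receptor median at 0.46 below the target median at 0.52. The differences between roles were not tested.

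**Figure D4:**
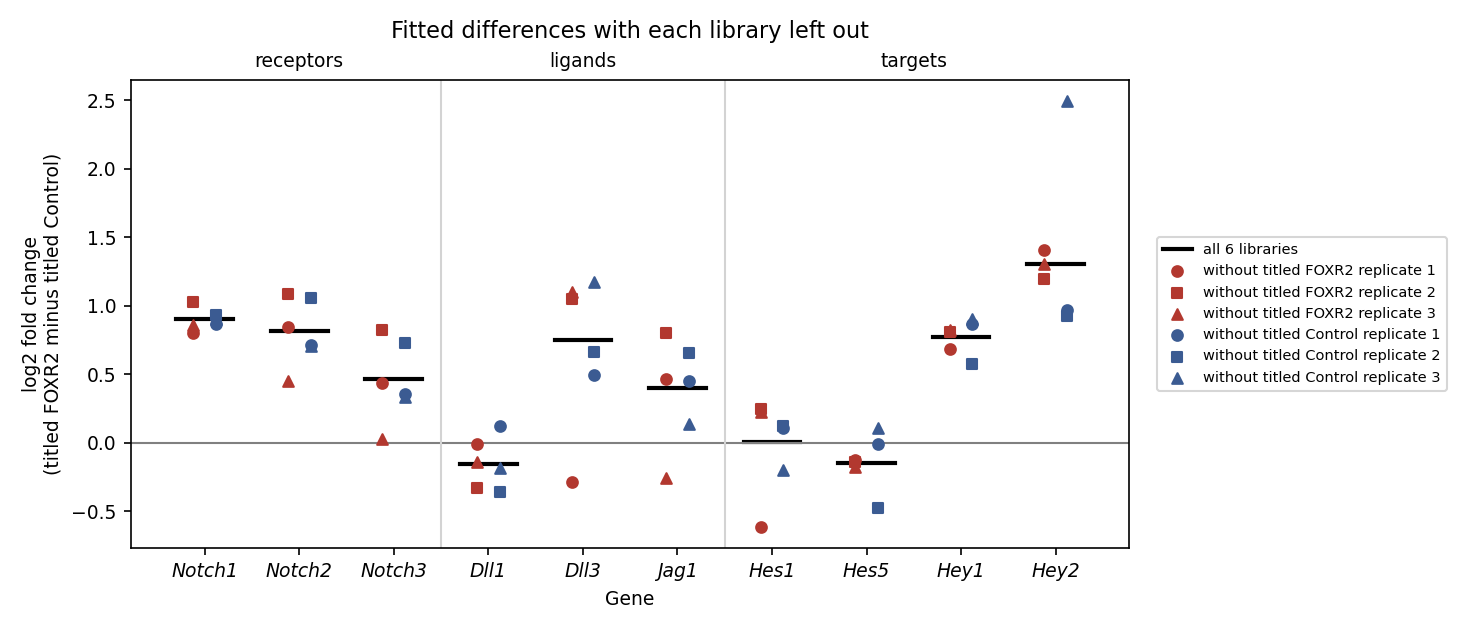
Fitted log2 fold change of each member with all 6 libraries (black bars) and with each library left out in turn (points; the color and symbol give the library left out). Notch1 and Hey1 keep values between 0.58 and 1.03, Dll3, Jag1 and Hes1 lie below 0 without 1 of the libraries titled FOXR2, and Hey2 lies at 2.49 without Control replicate 3.

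Outside the 10 members, 74 further Notch pathway genes were listed and 66 passed the filter on low counts. Of these, 2 were called higher by edgeR and 0 lower, or 3.03%, close to the 2.29% of all genes. Fitted values lay above 0 for 39 and below for 27 (median 0.10 on the log2 scale). The genes called were Neurl1a and Tle2. Neurl1a, a ubiquitin ligase related to fly neuralized, which drives ligand endocytosis, rose to 30.8 ± 6.80 CPM under the FOXR2 title, from 10.5 ± 1.64 CPM under Control (mean ± SD of 3 libraries; log2 fold change 1.56 ± 0.26, edgeR adjusted p = 0.0437). Its values were 32.6, 23.3 and 36.6 CPM under the FOXR2 title and 9.11, 10.1 and 12.3 CPM under Control. Tle2, a Groucho-type corepressor that Hes proteins recruit, rose from 15.8 ± 2.74 to 41.9 ± 9.14 CPM (log2 fold change 1.41 ± 0.25, edgeR adjusted p = 0.0438). Its libraries held 49.3, 31.6 and 44.6 CPM under the FOXR2 title and 18.5, 13.0 and 16.0 CPM under Control. Both groups were well apart for these genes, yet both calls were lost with sex as a covariate (adjusted p = 0.123 and 0.120) and without any library other than FOXR2 replicate 2 (0.0774 to 0.167 and 0.0835 to 0.171). Over all genes the calls fell likewise, from 300 to 7 with sex and to between 1 and 10 without any of those libraries. With sex the log2 fold changes were 1.49 for Neurl1a and 1.24 for Tle2.

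The lists of further receptors and ligands, glycosylation, cleavage, further target genes and proneural genes held 28 tested genes, of which edgeR called 0. At an unadjusted p under 0.05 edgeR gave 7 of the 28, where 24.9% of all genes fell under that limit, and DESeq2 called 7, beside its 14.6% of all genes, with 1 of the 28 lacking an adjusted p. Among 7 tested further receptors and ligands, Dlk1, a Delta-like protein without the usual receptor-binding domain, stood at 8.41, 8.81 and 3.86 CPM under the FOXR2 title and 22.6, 16.9 and 154 CPM under Control (edgeR adjusted p = 0.0945). Cntn1, a contactin reported as a Notch ligand, stood at 1208 ± 638 against 304 ± 185 CPM (mean ± SD of 3 libraries; adjusted p = 0.106). Of the 5 glycosylation genes, the fringe enzyme Lfng stood at 17.8 ± 3.59 against 7.96 ± 3.56 CPM and Poglut1, which adds glucose to the receptors, at 66.2 ± 5.48 against 105 ± 13.2 CPM (edgeR adjusted p = 0.117 and 0.0812). Among 10 cleavage genes the gamma-secretase subunit Psenen stood at -0.61 on the log2 scale (edgeR adjusted p = 0.206).

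The nuclear partner Rbpj, named after its values were seen, was at 107 ± 16.9 against 96.8 ± 31.1 CPM (mean ± SD of 3 libraries; edgeR adjusted p = 0.759). Of the 22 tested nuclear complex and corepressor genes 16 were fitted above 0. Among them Aes, a short Groucho relative, stood at 851 ± 185 against 510 ± 84.2 CPM (edgeR adjusted p = 0.115). Of 16 tested endocytosis and turnover genes, 8 were fitted above 0 and 8 below, with Epn1, an endocytic adaptor, at -0.73 ± 0.23 on the log2 scale (edgeR adjusted p = 0.119). Among 5 tested further target genes, Nrarp, a direct target that feeds back on Notch, stood at 12.4 ± 4.21 against 20.5 ± 7.82 CPM and Id4, an inhibitor of basic helix-loop-helix factors, at 7.28 ± 3.16 against 2.01 ± 0.657 CPM (edgeR adjusted p = 0.278 and 0.0775).

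Other cell type markers differed beside these results. The 9 astrocyte and radial glia markers, which mark cells with active Notch in the normal brain, summed to 3862, 3560 and 4355 CPM under the FOXR2 title and to 4295, 2885 and 1629 CPM under Control. These sums overlapped and were mostly Vim and Nes, 2 intermediate filament genes. Singly, 2 of the 9 markers did not overlap between the groups, 1 in each direction, beside 30.3% of all tested genes. Slc1a2, a glutamate transporter of astrocytes, rose from 24.7 ± 6.72 to 82.1 ± 12.8 CPM (mean ± SD of 3 libraries; log2 fold change 1.74 ± 0.25, edgeR adjusted p = 0.0379). This call was lost with sex as a covariate (0.115) and without any library other than FOXR2 replicate 2 (0.0580 to 0.158). With sex its log2 fold change was 1.80, and calls over all genes fell from 300 to 7. Aldh1l1, a folate enzyme of astrocytes, stood at 32.3 ± 29.6 against 106 ± 34.5 CPM without overlap (log2 fold change -1.71 ± 0.62, edgeR adjusted p = 0.150), and at -2.79 without FOXR2 replicate 2 (edgeR adjusted p = 0.0353). Of the 9 markers 1 was called higher and 0 lower, beside 0.908% and 1.38% of all genes. Both genes were named after their values were seen. The 6 oligodendrocyte precursor markers, among them the electroporated Pdgfra, summed to 8848, 6151 and 8239 CPM against 5663, 5076 and 5013 CPM. These sums did not overlap, but singly only 1 of the 6 markers, Ptprz1, did not overlap, beside 30.3% of all tested genes. EdgeR called 0 of the 6, and Sox10 was fitted below 0 (-0.19 on the log2 scale). The 6 neuronal markers summed to 390 to 420 CPM in the libraries titled FOXR2 and to 60.9 to 121 CPM in those titled Control. All 6 were fitted above 0, and 4 did not overlap between the groups, each with the libraries titled FOXR2 higher. Of all tested genes, 13.0% did not overlap on that side and 30.3% in either direction. EdgeR called 1 of the 6 higher, beside 0.908% of all genes called higher and 2.29% called in either direction. This was Syt1, named after its values were seen (log2 fold change 4.08 ± 0.67, edgeR adjusted p = 0.0436). Mature oligodendrocyte markers varied within both groups, from 186 to 4772 CPM. The part of these cell types in the Notch values was not tested.

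The genes whose pattern over the 6 libraries was most like that of the most abundant member of each role were taken by the Pearson correlation of log2(CPM + 0.5). Nearest to Notch1 were Nbl1, Msx1 and Scn3a, with correlations of 0.996, 0.996 and 0.995. Nearest to Dll3 were Sh2b2, Kdelr1 and Rps6ka4, at 0.987, 0.986 and 0.983, and nearest to Hes5 were Rnls, Drc1 and Fbxo46, at 0.976, 0.959 and 0.958. Each is the highest of 12433 genes over only 6 points that share library and depth, and 131 genes passed a correlation of 0.95 with Notch1, 19 with Dll3 and 4 with Hes5.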

How the data were processed

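Per the labels' protocols, poly(A) RNA of snap-frozen tumors went into strand-keeping libraries, which were read from one end over 51 bases. The authors deposited whole-number read counts per gene symbol. TopHat and DESeq2 are named without versions in the submitters' processing notes, which name the human build hg19 for this table of mouse symbols. How reads were counted, on which annotation and with or without strand is not given in the sources used here, and genes lying across Notch1, Notch3, Dll1 and Hes5 on the opposite strand may share reads with them.

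Counts were fitted with edgeR 4.0.16 (R 4.3.3): filterByExpr with a count minimum of 10, TMM factors of 0.961 to 1.03, and the quasi-likelihood F test of 3 libraries titled FOXR2 against 3 titled Control without covariates. The call threshold was 0.05 on the p-value after Benjamini-Hochberg adjustment over 13101 genes. Standard errors were derived from the F statistic. Levels per kilobase were CPM divided by the exon length of the GENCODE M21 basic annotation, matched by symbol. No pair of libraries under one title agreed within sampling noise (median chi-square per gene 8.37 to 13.1). On simulated counts for this comparison (12941 genes, 200 of them changed), 49% of 4-fold and 6% of 2-fold changes were recovered. Floors of 3 counts cover counting error only.

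The members, lists and tests were chosen with earlier results of these data known. Named beside the members were all called genes of the pathway lists, the 2 smallest adjusted p of each list, and the 3 genes nearest in pattern to the most abundant member of each role. Some genes that this rule names are not reported here. Alternatives were no filter, RLE factors, total-count scaling, DESeq2 1.42.0, limma-voom (limma 3.58.1), the replicate number as a block, animal sex as a covariate, and each library left out in turn.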

Additional observations from a re-analysis of the deposited data

How the results depend on the processing

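Under 13 alternatives, Notch1, Notch2, Notch3, Hey1 and Hey2 kept a log2 fold change above 0, with ranges of 0.80 to 1.03, 0.46 to 1.09, 0.03 to 0.82, 0.58 to 0.90 and 0.93 to 2.49. The number of members called was 0 in every fit but DESeq2, which called 2 higher. Hes1 changed sign under limma-voom (-0.11), the replicate block (-0.12), animal sex as a covariate (-0.24) and no filter on low counts (-0.009), and Jag1 changed sign with sex (-0.17). With 1 library left out, Hes1 ranged from -0.61 to 0.25, Jag1 from -0.26 to 0.80, Dll1 from -0.36 to 0.12, Dll3 from -0.28 to 1.18 and Hes5 from -0.48 to 0.11. The causes were not tested. The median over the 10 members ranged from 0.34 to 0.82 with 1 library left out. That of the ligands ranged from -0.14 to 0.80 there and was -0.17 with sex.

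DESeq2 called 8 of the 66 other tested pathway genes higher and 3 lower. Over all genes with an adjusted p it called 7.30% higher and 14.6% in either direction. With the replicate block, and with sex, edgeR called 0 of these pathway genes higher, and with 1 library left out it called 0 to 2. Over all genes, 119 were called higher and 181 lower. DESeq2 called 916 and 921, total-count scaling called 119 lower, the replicate block gave 0 and 0 and sex 7 and 0, while leaving out 1 library gave 1 to 123 higher and 0 to 82 lower. At an unadjusted p under 0.05 the edgeR fits still held 2652 genes with the block and 2398 with sex. Same-numbered libraries of the 2 titles did not deviate together (correlations of -0.02, -0.24 and -0.01), and no library correlated best with its own number. With the block the log2 fold change of Notch1 was 0.89 (edgeR adjusted p = 0.148). Depth limits Hey2 most, with as few as 17 counts in a library.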
